A study of Gossypium hirsutum with 6 samples.

Results

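The comparison described here sets leaves of heat-tolerant upland cotton after 8 h at 45 °C against leaves of the same genotype after 4 h. It covers the transcripts that reached 10 RPKM or more in at least one of these libraries. RPKM is a read count divided by the length of the transcript and by the size of the library. The rule kept 15935 of 421554 transcripts, which belong to 9328 of 148415 components. A component is the set of assembled transcripts that share an identifier apart from its last number. Of the transcripts kept, 7011 reached the limit in both libraries, 4977 only at 4 h and 3947 only at 8 h.

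Gossypium hirsutum seedlings of Nan Dan Ba Di Da Hua, described by the labels as heat tolerant, and of Earlistaple 7, described as heat sensitive, were grown in pots with Hoagland's solution. Days were at 28 °C and nights at 22 °C, with 14 h of light. At an age of about 20 days, with 3 leaves, some seedlings were moved to 45 °C for 4 or 8 h about 6 h after the lights came on, while the control group stayed at 28 °C. Leaf RNA of each genotype and condition gave 1 library, 6 in all, and how many plants went into a library is not stated. Each value below is therefore from a single library, no difference could be tested against the spread between plants, and no p-value is given. The labels give no hour of harvest for the control, and after 8 h of heat the leaves were also taken later in the day than after 4 h, so that duration of heat and time of day cannot be told apart.

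Plant cells answer heat within minutes through heat shock transcription factors, which switch on genes for chaperones, the proteins that keep others folded. Transcripts of photosynthesis and growth commonly decline over hours of heat, and some responses follow only after the first wave of chaperones. Upland cotton is an allotetraploid, so that many of its genes exist as near-identical copies in the A and D subgenomes. The identifiers are those of a de novo assembly without gene names, and its sequences were not at hand. A search by identifier alone among 99454 RefSeq cotton genes (Gossypium_hirsutum_v2.1) found 0 matches. Identifiers of this form could not match gene names, so the 0 says nothing about likeness in sequence. No transcript is therefore assigned to a gene or a pathway, and neither the leaf identity of the libraries nor chaperone genes could be checked by name.

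The 4 h and 8 h libraries of the tolerant genotype were sequenced to nearly the same depth. Relative to the tolerant control, read depth recovered from the spacing of low values was 0.806 at 4 h and 0.796 at 8 h, and it was between 0.869 and 1.13 in sensitive leaves. Absolute depth is unknown, so no counting interval is given. The 100 most abundant transcripts took 9.49% of all RPKM at 4 h and 12.9% at 8 h in tolerant leaves. RPKM compares shares of a library, and the centre of the comparison depended on the scaling between libraries. Median-of-ratios scaling, taken over all transcripts detected in every library, sets the typical transcript to the same level in each. It moved the log2 ratio of 8 h to 4 h by 0.73. Upper-quartile scaling moved it by 0.32. Both move ratios upwards, so that the values as deposited give the lowest count of transcripts higher at 8 h and the highest count of transcripts lower. In whole leaves, fewer cells of a type and less RNA per cell cannot be told apart.

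In what follows, 3 values given in a row are from the control, the 4 h and the 8 h library. Ratios are log2 of (RPKM at 8 h + 1) over (RPKM at 4 h + 1), a scale that understates the change of low transcripts. A plain fold of RPKM is given only where both libraries were at 1 RPKM or more. Of the 15935 transcripts, 3611 (22.7%) were at least 2-fold higher at 8 h than at 4 h and 3885 (24.4%) were at least 2-fold lower. Counted once per component, by the transcript with the highest mean RPKM in the 4 h and 8 h libraries, 1833 of 9328 components were higher and 2533 lower. These percentages are those of the whole comparison at this limit. With a limit of 1 RPKM in either library, 10.9% of 177741 transcripts were higher and 16.7% lower. Under upper-quartile scaling 4690 transcripts were higher and 2629 lower, and under median-of-ratios scaling 6400 and 1558. Transcripts higher at 8 h thus made up 48.2% of those past 2-fold as deposited, 64.1% under upper-quartile scaling and 80.4% under median-of-ratios scaling. The number past 2-fold whichever of the 3 scalings was used was 3611 higher and 1558 lower. Both scalings move ratios upwards, so that these are the higher count as deposited and the lower count under median-of-ratios scaling, and no separate check.

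Large differences leaned to higher values at 8 h. At least 8-fold higher were 481 transcripts (3.02%) of 260 components, and at least 8-fold lower were 149 (0.935%) of 122 components. At 16-fold the numbers were 155 and 21, and at 32-fold 31 and 4. Past 8-fold whichever scaling was used were 481 higher and 53 lower, again the count as deposited and the count under median-of-ratios scaling. With 10 RPKM required in both libraries, 41 were at least 8-fold higher and 8 lower, so that most of the large ratios belonged to transcripts below 10 RPKM at one of the times.

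**Figure D1:**
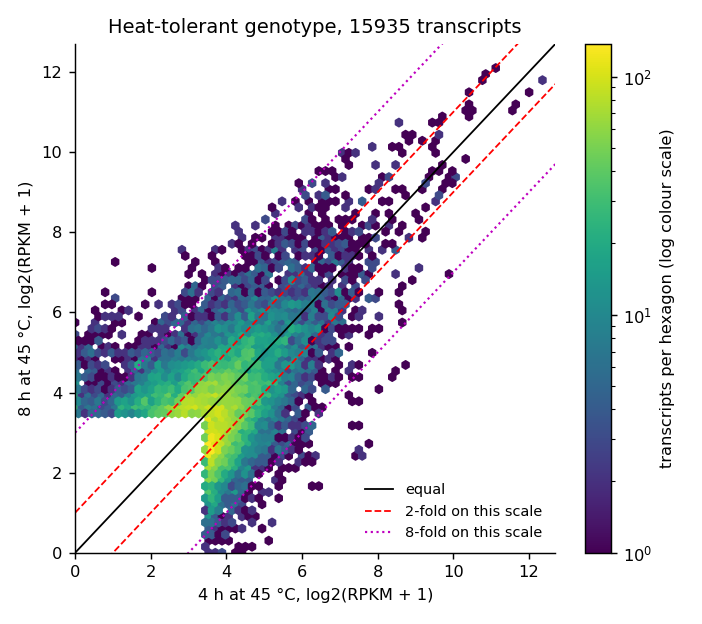
Level after 8 h (y axis) against level after 4 h (x axis) of heat in tolerant leaves, as log2(RPKM + 1), for the 15935 transcripts compared; colour gives the number of transcripts in each hexagon. The dashed and dotted lines mark 2-fold and 8-fold differences on this scale, past which lay 3611 and 481 transcripts above the diagonal and 3885 and 149 below it; the empty corner at low values is the limit of 10 RPKM.

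The limit itself left transcripts close on either side. Just inside it, comp104284_c0_seq1 measured 10 RPKM at 4 h and 9.98 RPKM at 8 h, comp105391_c0_seq22 measured 7.29 and 10 RPKM, and comp108123_c0_seq1 measured 10 and 7.75 RPKM. Just outside it, comp107027_c0_seq3 measured 9.99 RPKM at 4 h and 4.33 RPKM at 8 h, comp109113_c0_seq5 measured 9.99 and 8.81 RPKM, and comp111906_c0_seq2 measured 9.99 and 8.33 RPKM. Their ratios ran from -1.04 to 0.41, so that transcripts next to the limit included one past 2-fold.

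The transcripts with the highest ratios were near or at 0 until 4 h and abundant at 8 h. comp123352_c0_seq5 led, listed at 0 in unheated tolerant leaves, with 1.07 RPKM at 4 h and 143 RPKM at 8 h. Its plain fold from 4 h to 8 h was 134, and in sensitive leaves it was listed at 0 in the control and at 4 h and measured 42.0 RPKM at 8 h. Both genotypes therefore had it at 8 h, with 1.07 RPKM or less before. comp127710_c1_seq1 was listed at 0 in the tolerant control and measured 0.67 RPKM at 4 h and 93.1 RPKM at 8 h. In the sensitive libraries it was listed at 0 until 4 h and measured 29.1 RPKM at 8 h. It shares this order of libraries with comp126167_c1_seq5, which was listed at 0 in the tolerant control and measured 1.05 RPKM at 4 h and 85.6 RPKM at 8 h, a plain fold of 81.5. The sensitive libraries gave 0, 0 and 23.1 RPKM for it. comp118396_c0_seq3 was the one of the 10 leading components with a value above 0 in the tolerant control, at 0.34 RPKM, followed by 0.84 RPKM at 4 h and 74.7 RPKM at 8 h.

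The other leading transcripts had the same shape at lower levels. comp125249_c1_seq3 measured 0.46 RPKM at 4 h and 65.2 RPKM at 8 h in tolerant leaves, against 0.04 and 15.2 RPKM in sensitive leaves. comp123530_c2_seq2 measured 0.58 and 61.2 RPKM in tolerant leaves and 0 and 13.2 RPKM in sensitive leaves. Over the 10 leading components, levels at 8 h ran from 39.8 to 143 RPKM in tolerant and from 1.98 to 42.0 RPKM in sensitive leaves, and the ratios from 5.30 to 6.12 and from 1.58 to 5.43. The 10 were chosen by the tolerant 8 h library, so that the lower sensitive levels are no evidence of a difference between the genotypes.

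Of the 15935 transcripts, 103 of 86 components were listed at 0 at 4 h. At 8 h these stood between 10.0 and 53.2 RPKM, with a median of 14.4 RPKM, and 97 of them were also listed at 0 in the tolerant control. The sensitive libraries, which had no part in choosing them, listed 91 of the 103 at 0 at 4 h and 1 at 8 h, where the median was 3.10 RPKM and the highest value 10.8 RPKM. The sensitive value was higher at 8 h than at 4 h for 102 of the 103, against 9030 of all 15935. However, the 91 listed at 0 in sensitive leaves at 4 h could not be lower at 8 h. comp97756_c0_seq7, the highest of the 103, was listed at 0 in the control and 4 h libraries of both genotypes. It measured 53.2 RPKM at 8 h in tolerant leaves and 1.98 RPKM in sensitive leaves. comp112744_c0_seq13 measured 45.7 and 4.82 RPKM at 8 h, comp33859_c0_seq1 41.6 and 9.59 RPKM, comp116658_c0_seq12 39.8 and 7.95 RPKM, and comp89295_c0_seq1 37.7 and 4.67 RPKM, in the tolerant and the sensitive genotype, each listed at 0 in the other 4 libraries. The 5 were chosen by their tolerant 8 h level, so that the lower sensitive level is a description and shows no difference between the genotypes.

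The transcripts with the lowest ratios fell into several profiles. They were chosen for a tolerant 8 h level far below the 4 h level, so that their low tolerant 8 h values follow in part from this choice. comp102453_c0_seq1 measured 548 RPKM in unheated tolerant leaves, 192 RPKM at 4 h and 4.52 RPKM at 8 h, 42.4-fold lower at 8 h than at 4 h. The sensitive libraries gave 303, 403 and 485 RPKM. comp98734_c0_seq1, of another component, ran close beside it at 613, 219 and 5.78 RPKM in tolerant leaves and 327, 451 and 557 RPKM in sensitive leaves. These transcripts were therefore among the abundant ones at 4 h in both genotypes and at 8 h in sensitive leaves, and low in the tolerant 8 h library alone. comp129130_c0_seq1 and comp129111_c0_seq1 had another profile and were also proportional to each other over the 6 libraries. The first measured 81.6 RPKM in the tolerant control, 85.5 RPKM at 4 h and 2.34 RPKM at 8 h, a level 36.5-fold lower than at 4 h. In the sensitive libraries it stood at 13.6, 117 and 60.6 RPKM. It differed little between control and 4 h in tolerant leaves, while sensitive leaves at 4 h were well above their control.

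comp129715_c0_seq1 and comp129940_c0_seq1 had identical values in all 6 libraries, at 6.90, 36.0 and 0.59 RPKM in tolerant leaves and 2.48, 82.8 and 44.6 RPKM in sensitive leaves, with the highest value at 4 h in both genotypes. They are counted as 2 transcripts, although reads that separate them are not evident from these values. comp39356_c0_seq1 measured 35.5, 33.0 and 0.22 RPKM in tolerant leaves and 7.65, 41.0 and 26.3 RPKM in sensitive leaves. comp38689_c0_seq1 measured 25.4, 24.7 and 0.16 RPKM against 5.59, 29.3 and 18.5 RPKM. In these 4 transcripts the tolerant 8 h library was the lowest of the 6, as it was for comp130650_c0_seq1, at 28.3, 22.1 and 0.09 RPKM in tolerant leaves and 21.1, 14.3 and 6.63 RPKM in sensitive leaves. Over the 10 leading components the tolerant ratios ran from -5.13 to -4.40 and the sensitive ratios from -2.80 to 0.30. The 10 were chosen by the tolerant ratio, so that the milder sensitive ratios are no evidence of a difference between the genotypes.

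**Figure D2:**
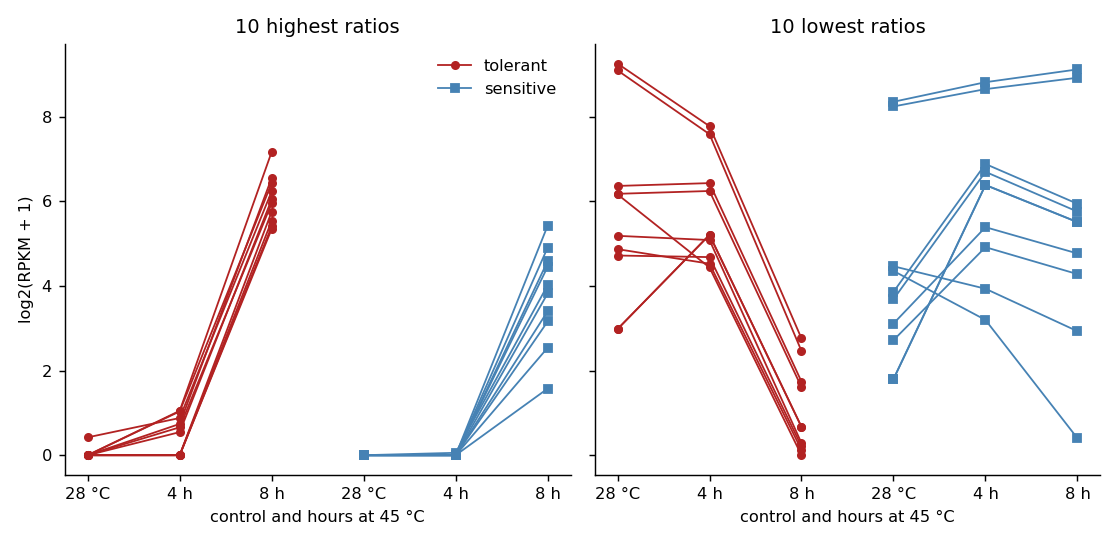
Levels, as log2(RPKM + 1), of the transcripts with the 10 highest (left) and 10 lowest (right) ratios of 8 h to 4 h in tolerant leaves, 1 transcript per component; each line joins the control, 4 h and 8 h libraries of one genotype, and each point is 1 library. On the left both genotypes stay near 0 until 4 h. They end at 39.8 to 143 RPKM (tolerant) and 1.98 to 42.0 RPKM (sensitive). On the right the tolerant lines end at 5.78 RPKM or less, while the sensitive ones end between 0.32 and 557 RPKM. Both lists were chosen by the tolerant ratio.

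Among transcripts that reached the limit at 4 h, a value of 0 at 8 h was rare. Of these 11988 transcripts, 9 of 9 components were listed at 0 at 8 h, after 10.7 to 20.7 RPKM at 4 h. This holds for the limit only, since over all 421554 transcripts 38956 were listed at 0 at 4 h and 54739 at 8 h. comp103945_c1_seq1 measured 70.9 RPKM in the tolerant control, 20.7 RPKM at 4 h and 0 at 8 h, against 19.5, 8.18 and 0.32 RPKM in sensitive leaves. comp85514_c0_seq2 ran beside it at 63.6, 18.5 and 0 RPKM in tolerant leaves and 17.4, 7.42 and 0.25 RPKM in sensitive leaves. For these transcripts levels were lower with each longer heat in both genotypes. comp158432_c0_seq1 measured 8.69, 14.6 and 0 RPKM in tolerant leaves and 8.65, 13.6 and 7.42 RPKM in sensitive leaves. comp35548_c0_seq1 measured 14.1, 14.4 and 0 RPKM against 4.21, 5.82 and 3.17 RPKM, and comp35212_c0_seq1 15.0, 13.3 and 0 RPKM against 4.47, 6.18 and 3.36 RPKM. The last 3 stayed above 3 RPKM in the sensitive 8 h library. All were chosen for a 0 in the tolerant 8 h library, so that this contrast is a description only.

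The most abundant transcripts kept their places in part. Of the 10 highest transcripts at 4 h, 7 were among the 10 highest at 8 h, of the 100 highest 60, and of the 1000 highest 526. In the sensitive genotype the corresponding numbers were 8, 65 and 719. Transcripts at 100 RPKM or more at either time numbered 781, of which 249 passed that level at both times, 350 only at 8 h and 182 only at 4 h. Past 2-fold, 381 of the 781 were higher at 8 h and 112 lower, against 22.7% and 24.4% of all transcripts compared. The 350 that passed only at 8 h were higher there by this choice and the 182 lower. These counts therefore follow in part from the limit. The median ratio of the 781 was 0.93 in tolerant and 0.20 in sensitive leaves, or 1.65 and -0.084 under median-of-ratios scaling.

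At the top, 40 transcripts of 27 components reached 1000 RPKM, 22 of them only at 8 h and 5 only at 4 h. At least 2-fold higher at 8 h were 21 of the 40 and at least 2-fold lower 0, against 22.7% and 24.4% of all transcripts compared. Here too, the 22 that passed only at 8 h were higher there by this choice and the 5 lower. Above the control at 4 h were 37 of the 40. A choice by level in heated leaves favours this, and the share of all transcripts above their control at 4 h was not counted. In the sensitive genotype 21 of the 40 were higher at 8 h than at 4 h and 19 lower, against 9030 and 6894 of all 15935. comp104672_c0_seq9 measured 2172 RPKM at 4 h and 4387 RPKM at 8 h in tolerant leaves, 2.02-fold higher, against 863 and 786 RPKM in sensitive leaves. comp112949_c1_seq16, of another component, followed it at 1867 and 3854 RPKM in tolerant leaves and 769 and 696 RPKM in sensitive leaves. Both were low in the controls, at 6.59 and 5.26 RPKM in tolerant leaves, and so were high at 4 h in both genotypes and higher again at 8 h in the tolerant leaves. comp118207_c0_seq2 and its proportional partner comp91122_c0_seq2 were 1.68-fold higher at 8 h, the first at 1330 and 2232 RPKM, with 360 and 379 RPKM in sensitive leaves. comp118061_c1_seq1 and its partner comp118061_c0_seq1 were 1.41-fold higher, the first at 1425 and 2016 RPKM, with 657 and 589 RPKM in sensitive leaves. These last 4 lay inside 2-fold as deposited and past it under median-of-ratios scaling.

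Another abundant pair was higher at 8 h than at 4 h without having been above its control at 4 h. comp91592_c0_seq1 measured 392 RPKM in the tolerant control, 376 RPKM at 4 h and 1781 RPKM at 8 h, 4.74-fold higher than at 4 h. In the sensitive libraries it stood at 271, 620 and 651 RPKM. Its proportional partner comp91586_c0_seq1 measured 386, 370 and 1758 RPKM in tolerant leaves. The sensitive genotype was thus higher at 4 h and the tolerant one at 8 h.

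A few of the most abundant transcripts at 4 h were lower at 8 h as deposited, none by 2-fold. comp102481_c0_seq1, the highest at 4 h, was 1.53-fold lower at 8 h in tolerant leaves, with a ratio of -0.62, and had a ratio of -1.53 in sensitive leaves. comp92653_c0_seq9 measured 226, 1071 and 680 RPKM in tolerant leaves and 229, 617 and 576 RPKM in sensitive leaves. comp90991_c0_seq1 measured 802, 1242 and 920 RPKM against 549, 1754 and 1165 RPKM. As deposited, both genotypes had their highest value of these 3 transcripts at 4 h. Under median-of-ratios scaling the tolerant ratios of all 3 turned to slightly above 0, at 0.11, 0.075 and 0.30, and under upper-quartile scaling they stayed below 0.

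Some abundant transcripts stood at the same level at both times in tolerant leaves. comp107598_c0_seq3 measured 167 RPKM in the control, 563 RPKM at 4 h and 563 RPKM at 8 h, against 104, 352 and 204 RPKM in sensitive leaves. comp102620_c0_seq1 measured 26.6, 247 and 247 RPKM against 27.7, 715 and 215 RPKM. comp107598_c1_seq3 measured 195, 705 and 707 RPKM against 112, 455 and 256 RPKM. Of the 5 transcripts at 100 RPKM or more in both libraries that lay nearest to equality, 4 were above their control at both times, and all 5 were lower at 8 h than at 4 h in sensitive leaves, with ratios from -1.73 to -0.23. The remaining 2 of these were comp93333_c0_seq1, at 70.7, 170 and 171 RPKM in tolerant leaves, and comp85018_c0_seq1, at 234, 142 and 140 RPKM. Equality holds for values as deposited only, since either scaling places these transcripts higher at 8 h.

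The change from 4 h to 8 h was ordered by how abundant a transcript had been without heat. The control library takes no part in the ratio of 8 h to 4 h. The 1373 transcripts below 1 RPKM in the tolerant control had a median ratio of 2.13, with medians of 0.34 RPKM in the control, 3.73 RPKM at 4 h and 14.8 RPKM at 8 h. The 7221 transcripts between 1 and 10 RPKM had a median ratio of 0.29, with medians of 4.66, 11.2 and 12.3 RPKM. The 6706 transcripts between 10 and 100 RPKM had a median ratio of -0.59 and medians of 20.0, 18.9 and 13.2 RPKM. The 635 transcripts at 100 RPKM or more had a median ratio of -1.09 and medians of 179, 63.4 and 25.5 RPKM. Transcripts near 0 in unheated leaves thus had the highest ratios, and the class most abundant there had a lower median at each longer heat.

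Counted by the 2-fold limit, 75.9% of the transcripts below 1 RPKM in the control were higher at 8 h and 6.05% lower. Of those at 100 RPKM or more, 11.0% were higher and 52.1% lower. Of all transcripts compared 22.7% were higher and 24.4% lower. A transcript below 1 RPKM in the control had to exceed it in heat to enter the comparison, though not more at 8 h than at 4 h. Over components, with 1 transcript each, the medians of the 4 classes were 2.12, 0.14, -0.64 and -1.10. Median-of-ratios scaling gave 2.74, 0.96, 0.09 and -0.40 over transcripts, the same order around another centre. When the classes were set by the sensitive control, which is no library of this genotype, the tolerant medians were 1.88, 0.28, -0.64 and -1.44.

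The sensitive genotype had the same order over a narrower range of medians. These transcripts were admitted by the tolerant heated libraries, so that the narrower range is no evidence of a difference between the genotypes. For the classes by the tolerant control the sensitive median ratios were 1.11, 0.12, -0.01 and -0.38, and 0.88, -0.13, -0.28 and -0.66 under median-of-ratios scaling. Under that scaling the sensitive median of the most abundant class was below the tolerant one, and as deposited above it. The sensitive medians of the most abundant class were 152 RPKM in the control, 93.5 RPKM at 4 h and 74.1 RPKM at 8 h. Among the 10922 transcripts at 10 RPKM or more in the sensitive control, chosen with no tolerant library, 38.2% were at least 2-fold lower at 8 h than at 4 h in tolerant and 6.09% in sensitive leaves. Their medians were 17.3, 12.4 and 6.41 RPKM in tolerant leaves and 17.8, 13.2 and 13.0 RPKM in sensitive leaves. These values are as deposited, and the comparison of the genotypes in this set depended on the scaling. Under median-of-ratios scaling 17.1% were at least 2-fold lower in tolerant and 10.2% in sensitive leaves, the median ratios were -0.15 and -0.29, and the medians at 4 h and 8 h were 9.42 and 8.06 RPKM in tolerant and 12.8 and 10.4 RPKM in sensitive leaves. Under upper-quartile scaling the shares were 27.3% and 11.5% and the median ratios -0.48 and -0.33. A lower median ratio in the tolerant leaves thus held as deposited and under upper-quartile scaling and turned under median-of-ratios scaling, while the share past 2-fold was the higher one in tolerant leaves under all 3.

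**Figure D3:**
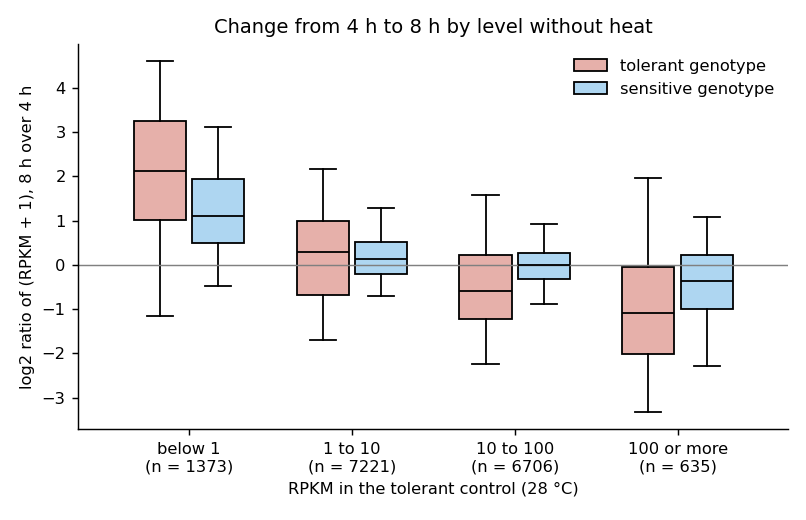
Log2 ratio of (RPKM + 1) at 8 h over 4 h (y axis) by the level of the transcript in the tolerant control (x axis, RPKM), for the tolerant and the sensitive genotype; boxes give the quartiles with the median as a line, whiskers the 5th and 95th percentiles over transcripts, which are not replicates. The tolerant medians go from 2.13 in the class below 1 RPKM to -1.09 in the class at 100 RPKM or more, and the sensitive medians from 1.11 to -0.38.

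Transcripts past 8-fold sat at the ends of this order. Of the 481 at least 8-fold higher at 8 h, 399 (83.0%) were below 1 RPKM in unheated tolerant leaves, 271 of them listed at 0, against 8.62% below 1 RPKM among all transcripts compared. Their medians were 0, 0.59 and 27.3 RPKM in tolerant leaves and 0, 0.04 and 5.66 RPKM in sensitive leaves. Of the 149 at least 8-fold lower, 129 (86.6%) were at 10 RPKM or more in the tolerant control, against 46.1% of all. Their medians were 56.9, 28.7 and 1.44 RPKM in tolerant leaves and 29.0, 34.6 and 19.5 RPKM in sensitive leaves.

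In terms of library content, the 3611 transcripts higher at 8 h held 4.84% of all RPKM in unheated tolerant leaves, 6.89% after 4 h and 25.7% after 8 h. The 3885 lower ones held 23.2%, 12.4% and 3.65%. In the sensitive libraries the first set held 2.71%, 5.97% and 8.76% and the second 22.4%, 16.8% and 12.5%. The tolerant 4 h and 8 h shares were used in choosing these sets, while the control and sensitive shares were not. The remaining transcripts held 28.2% at 4 h and 27.8% at 8 h in tolerant leaves.

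Transcripts higher at 8 h in tolerant leaves were mostly higher in sensitive leaves too. The ratios of the genotypes share no library. Over the 15935 transcripts Pearson's r was 0.632 and Spearman's rho 0.537, and over 9328 components r was 0.595, as a description only, since transcripts within a library share its depth and partly their reads. Of the 3611 transcripts at least 2-fold higher in tolerant leaves, 3236 (89.6%) had a sensitive ratio above 0, against 9030 of all 15935. In sensitive leaves 1436 (39.8%) of the 3611 were at least 2-fold higher, against 11.1% of all. The 3611 had a sensitive median of 1.69, 4.17 and 8.41 RPKM and a tolerant median of 2.50, 5.37 and 21.6 RPKM. Of the 481 at least 8-fold higher, 438 (91.1%) were at least 2-fold higher in sensitive leaves. Under median-of-ratios scaling, 64.1% of the 6400 transcripts then at least 2-fold higher in tolerant leaves had a sensitive ratio above 0. The share of all above 0 was not counted under that scaling. Of the 6400, 17.4% were at least 2-fold higher in sensitive leaves, against 7.48% of all.

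Like most transcripts compared, those lower at 8 h in tolerant leaves mostly stayed within 2-fold of their 4 h level in sensitive leaves. Of the 3885, 385 (9.91%) were at least 2-fold lower in sensitive leaves, while 3427 (88.2%) lay between the limits. Of all 15935, 3.87% were at least 2-fold lower there and 11.1% higher, so that most of these lay between the limits as well. The median of the 3885 was 15.8 RPKM in the tolerant control, 16.7 RPKM at 4 h and 5.10 RPKM at 8 h. In sensitive leaves it was 14.2, 17.7 and 15.9 RPKM. Past 8-fold, 64 of 149 (43.0%) were at least 2-fold lower in sensitive leaves. Under median-of-ratios scaling, 22.9% of the 1558 lower transcripts were at least 2-fold lower in sensitive leaves too and 76.3% lay between the limits. Among all, 6.68% were then at least 2-fold lower and 7.48% higher. A set chosen for a large tolerant ratio tends to look smaller in other libraries, so the reverse choice is given as well. Of 14347 transcripts at 10 RPKM or more in either heated sensitive library, 816 (5.69%) were at least 2-fold lower at 8 h in sensitive leaves, and 57.1% of these were also at least 2-fold lower in tolerant leaves, where 31.7% of the 14347 were. The 1216 (8.48%) higher ones were higher in tolerant leaves in 51.8%, where 11.5% of the 14347 were.

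Ratios were spread more widely in tolerant leaves. Their SD over the 15935 transcripts was 1.43, and 0.78 in sensitive leaves. On transcripts chosen by the sensitive libraries instead, the SDs were 1.22 and 0.77, the tolerant one again the wider. Whether it would recur in other plants cannot be read from 1 library a group.

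**Figure D4:**
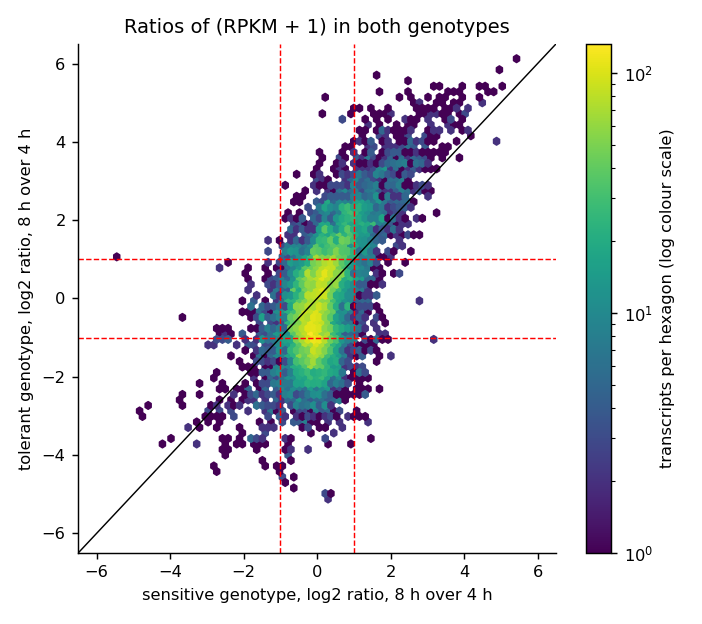
Log2 ratio of (RPKM + 1) at 8 h over 4 h in the tolerant (y axis) against the sensitive genotype (x axis) for the 15935 transcripts; colour gives the number of transcripts in each hexagon, dashed lines mark 2-fold and the solid line equal ratios. The cloud is steeper than the line of equality, with SDs of 1.43 (tolerant) and 0.78 (sensitive), and few transcripts lie past 2-fold in opposite directions, 7 higher and 73 lower in tolerant leaves as deposited, and 118 and 12 under median-of-ratios scaling.

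The ratio in tolerant leaves exceeded that in sensitive leaves by at least 1 for 2327 transcripts (14.6%), and fell short of it by at least 1 for 3507 (22.0%). This balance turned with the scaling, with 7163 and 917 for median-of-ratios scaling against 5162 and 1479 for upper-quartile scaling. Median-of-ratios scaling moved tolerant ratios by 0.73 and sensitive ratios by -0.29. Taken over only the 3306 transcripts at 10 RPKM or more in every library, it moved them by 0.27 and 0.037. The balance was not counted under that narrower scaling. comp122899_c0_seq1 had the highest difference, at 21.3, 4.84 and 11.7 RPKM in tolerant leaves and 16.8, 169 and 2.87 RPKM in sensitive leaves. It was high in the sensitive 4 h library alone. The next ones were late transcripts of the tolerant genotype, such as comp123352_c0_seq4, at 0, 0.33 and 44.8 RPKM against 0, 0 and 0.18 RPKM. It belongs to the component of the leading transcript comp123352_c0_seq5, which reached 42.0 RPKM in the sensitive 8 h library. comp126167_c1_seq14 likewise measured 0, 0.23 and 31.1 RPKM against 0, 0 and 0.13 RPKM, while comp126167_c1_seq5 of its component reached 23.1 RPKM there. In the sensitive 8 h library one transcript of each of these components was low and another was not, in pairs picked for a large difference, and how reads were shared within a component was not tested. comp44417_c0_seq1, in a component of its own, measured 0, 1.78 and 65.7 RPKM against 0, 0 and 0.66 RPKM.

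At the other end, after comp102453_c0_seq1 and comp98734_c0_seq1, came comp109987_c0_seq2 at 41.8, 39.9 and 2.42 RPKM in tolerant leaves and 45.0, 62.8 and 169 RPKM in sensitive leaves. comp110049_c0_seq2 measured 63.0, 46.3 and 4.57 RPKM against 63.1, 90.1 and 234 RPKM. comp47861_c0_seq1 measured 8.02, 11.5 and 0 RPKM against 17.5, 18.5 and 36.4 RPKM. In all 3 the sensitive level was the higher one at 4 h already, and the directions from 4 h to 8 h were opposite.

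Transcripts of one component mostly had similar ratios. Of 9328 components, 6364 held 1 transcript of the comparison and 2964 held more, up to 30, with 9571 transcripts in all. In the 2964 the median span between the highest and lowest ratio was 0.21, and the span was below 1 in 2582 (87.1%). The SD within components was 0.45, and 1.41 over all these transcripts. All transcripts were at least 2-fold higher in 531 components and at least 2-fold lower in 518. Transcripts of a component can share reads, so that part of this likeness may lie in how reads were assigned, which was not tested.

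In 19 components one transcript was at least 2-fold higher and another at least 2-fold lower at 8 h. The widest span was that of comp121970_c0. Its transcript comp121970_c0_seq2 measured 0.14, 0 and 23.0 RPKM in tolerant leaves, and comp121970_c0_seq17 25.3, 12.2 and 4.08 RPKM. In the sensitive genotype the first measured 0, 0.20 and 5.42 RPKM and the second 23.0, 12.3 and 13.5 RPKM. In comp109357_c1 the transcript comp109357_c1_seq26 measured 0.53, 3.67 and 54.1 RPKM in tolerant leaves and comp109357_c1_seq15 21.4, 11.1 and 4.07 RPKM. In both components the late transcript replaced the early one as the higher of the pair, and 10 of 12 and 9 of 10 of their compared transcripts were at least 2-fold higher at 8 h.

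The other 3 of the 5 widest components differed in kind. In comp119243_c0, comp119243_c0_seq16 measured 31.4 RPKM at 4 h and 3.87 RPKM at 8 h in tolerant leaves while comp119243_c0_seq10 measured 3.10 and 10.7 RPKM, and the sensitive genotype had the same exchange, at 26.0 and 4.18 RPKM against 1.92 and 12.2 RPKM. In comp115852_c0, comp115852_c0_seq3 measured 32.2 and 307 RPKM and comp115852_c0_seq1 11.7 and 5.29 RPKM. In comp116742_c0, comp116742_c0_seq3 measured 285 RPKM in the control, 64.4 RPKM at 4 h and 531 RPKM at 8 h and comp116742_c0_seq6 36.1, 42.9 and 19.6 RPKM. The lower transcript of comp109357_c1, comp115852_c0 and comp116742_c0 was within 2-fold under either scaling, and that of comp121970_c0 under median-of-ratios scaling. Over the 4721 components with several assembled transcripts, the transcript with the highest RPKM differed between 4 h and 8 h in 942 (20.0%).

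A part of the transcripts are near copies of each other in their values. Of the 13681 transcripts that were nowhere below 1 RPKM, those proportional over the 6 libraries within a Euclidean distance of 0.02 on centred natural logarithms were merged, which left 14118 of the 15935. Groups that reached over components held 3112 transcripts (19.5%), and no group held more than 8. After merging, 3340 transcripts were higher at 8 h by 2-fold or more and 3374 lower, with 478 and 129 past 8-fold.

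The distribution of ratios had a peak on either side of 0 in tolerant leaves. In bins of 0.4 the numbers were 1999 around -0.9, 1581 around -0.1 and 1714 around 0.7. With a limit of 10 RPKM on the mean of both libraries in place of either, the numbers were 1292, 1472 and 1274, with a single peak. The dip near 0 therefore came with the rule that either library may pass the limit, which admits more transcripts the further their levels lie apart. On that alternative the tolerant SD was 1.36 and the sensitive SD 0.79.

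**Figure D5:**
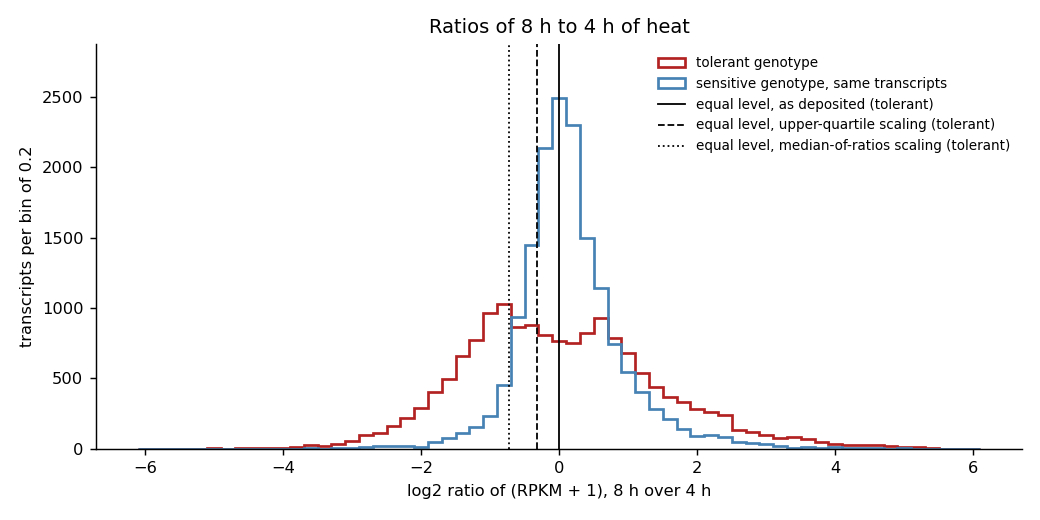
Number of transcripts (y axis) by log2 ratio of (RPKM + 1) at 8 h over 4 h (x axis, bins of 0.2) for the 15935 transcripts, in tolerant and in sensitive leaves. Vertical lines show where a ratio of RPKM equal to 1 would lie for the tolerant genotype as deposited (0) and under upper-quartile scaling (-0.32) and median-of-ratios scaling (-0.73); the tolerant distribution is the wider one, and its split into higher and lower depends on the line chosen.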

How the data were processed

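Leaf mRNA of 6 libraries, 1 for each genotype and condition, was sequenced by Illumina HiSeq. The values used are RPKM as deposited by the authors, with 2 decimals. Which assembler, aligner and counting program were used, and whether strand was kept, is not stated in the labels or file headers.

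Files were joined on the transcript identifier. Ratios were log2 of (RPKM + 1) at 8 h over 4 h, for transcripts that reached 10 RPKM in at least one of these libraries. With 1 library a side, sizes are reported and no test was run. Differences of at least 2-fold and 8-fold were counted, over transcripts and over components. Transcripts named in the text are, 1 per component and list, the 10 highest and 10 lowest ratios, the 10 most abundant at each time, the 5 highest and 5 lowest differences between genotypes, up to 5 listed at 0 at either time, the 5 components with the widest opposite moves, the 5 transcripts at 100 RPKM or more nearest equality, and 3 on each side of the limit. Others are said to be chosen after their values were seen. The members and rules were chosen with earlier results of these data known. Relative depth was fitted to 15 pairs of libraries, on the principle that ratios of low values are ratios of whole reads; the fit lay at the best value of 14 pairs. Counting, scaling and merging were tried on scaled copies of the data without noise, with few transcripts changed. This checks the code and not which scaling is right for these libraries. The depth fit was not simulated. Python 3.11.15, pandas 2.3.3, NumPy 2.4.6, SciPy 1.17.1 and matplotlib 3.10.9 were used.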

Additional observations from a re-analysis of the deposited data

Results flagged for a closer look

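Opposite directions between genotypes were looked for, since the labels set the genotypes against each other. Of the 15935 transcripts, 73 of 56 components were at least 2-fold lower at 8 h in the tolerant genotype and at least 2-fold higher in the sensitive one. The reverse held for 7 transcripts of 7 components. Of all, 24.4% were lower in tolerant and 11.1% higher in sensitive leaves, and 22.7% and 3.87% the other way, so that opposite moves were few. The balance of 73 against 7 turned with the 2 scalings below. It was not counted under scaling over the 3306 transcripts at 10 RPKM or more in every library. Under median-of-ratios scaling 12 of the 73 remained past 2-fold both ways, all that had this pattern, and 118 transcripts of 92 components had the reverse. Under upper-quartile scaling the numbers were 14 and 85, and the 7 transcripts kept their pattern under both. With 1 library per group the difference was not tested. Among the transcripts named above, 3 were past 2-fold in opposite directions as deposited. The ratio of comp122899_c0_seq1 was 6.57 higher in the tolerant genotype on the log2 scale, while the difference was -4.99 for comp109987_c0_seq2 and -4.45 for comp110049_c0_seq2.

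Further examples were chosen after their values were seen. comp47918_c0_seq1 measured 164, 92.5 and 17.6 RPKM in tolerant leaves (control, 4 h, 8 h) and 128, 133 and 423 RPKM in sensitive leaves. comp41380_c0_seq1 measured 67.9, 30.2 and 10.4 RPKM against 50.9, 37.8 and 151 RPKM, and comp41277_c0_seq1, of another component, ran close to it. In these the tolerant leaves were lower with each longer heat and the sensitive leaves highest at 8 h. In the reverse direction, comp98681_c0_seq1 measured 108, 182 and 435 RPKM in tolerant leaves and 34.4, 290 and 117 RPKM in sensitive leaves.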

How the results depend on the processing

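No paired analysis was possible because each group held 1 library, and for the same reason no replicate could be left out. Median-of-ratios scaling gave 6400 transcripts at least 2-fold higher at 8 h and 1558 lower, 931 and 53 past 8-fold, 3398 and 1086 components, and 7163 and 917 transcripts whose tolerant ratio lay at least 1 above or below the sensitive one. Upper-quartile scaling gave 634 transcripts at least 8-fold higher and 90 lower, and 5162 and 1479 for the difference between genotypes. The median ratio, -0.094 as deposited, was 0.60 with median-of-ratios scaling, 0.21 with upper-quartile scaling, 0.048 with 10 RPKM in both libraries, -0.099 with a pseudocount of 0.1, -0.31 with a filter of 1 RPKM, -0.15 with no filter and -0.054 after merging proportional transcripts. The pseudocount of 0.1 gave 661 transcripts at least 8-fold higher and 329 lower.

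A filter of 1 RPKM in either library, and no filter, each gave 19329 transcripts higher and 29713 lower, with 12134 and 16849 components under the first and 12117 and 16822 under the second. With 10 RPKM in both libraries, 1069 of 7011 transcripts were higher and 698 lower, 41 and 8 past 8-fold, and 628 and 514 components, fewer because fewer were compared. Summing RPKM over components gave 2449 of 20080 higher and 5942 lower.

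By level in the tolerant control the medians, from lowest to highest class, were 2.74, 0.96, 0.091 and -0.40 under median-of-ratios scaling, 2.38, 0.58, -0.29 and -0.79 under upper-quartile scaling and 2.43, 0.30, -0.63 and -1.15 with a pseudocount of 0.1. Their order was the same in each. Added after the data were seen, median-of-ratios scaling over the 3306 transcripts that reached 10 RPKM in every library gave a median of 0.16 and 96 transcripts at least 8-fold lower. A limit on the mean, also added, gave a median of 0.0017, with 2378 transcripts higher and 2182 lower of 11301. Past 8-fold it gave 307 and 99, and over components 1301 higher and 1455 lower. Of 59 named transcripts, 51 kept their side of 2-fold under median-of-ratios scaling, 54 under upper-quartile scaling and 59 with the other pseudocount, and none past 2-fold changed sign. Inside 2-fold, 6 changed sign to higher at 8 h under median-of-ratios scaling and 2 under upper-quartile scaling. Also added, median-of-ratios scaling gave 12 transcripts lower in tolerant and higher in sensitive leaves and 118 with the reverse, and upper-quartile scaling 14 and 85. In the set chosen by the sensitive control, 17.1% and 10.2% were lower under the first and 27.3% and 11.5% under the second. Depth limits the lowest values, where 1 read changes a ratio most.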
